A study of Homo sapiens with 16 samples.

Results

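The genes examined here encode the machinery that builds ribosomes in the nucleolus: 58 named genes for ribosomal RNA transcription, nucleolar chaperones, small nucleolar ribonucleoprotein particles (snoRNPs) and assembly of both ribosomal subunits. They were chosen by name, with earlier results of these data known, and 57 of them had an entry among the 26830 of the expression table. RRN3, an initiation factor of RNA polymerase I, was not analysed here. All 57 were among the 14951 entries with at least 1 TPM (an abundance scaled by transcript length and library total) in at least 3 libraries, so none was lost to the filter on low values.

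The libraries came from NOMO-1, a human cell line established from acute monocytic leukaemia, and held poly(A)-enriched RNA. Parental cells were exposed for 72 h to 100 nM CS1 (n = 3), 500 nM CS2 (n = 3) or the solvent DMSO (n = 4). Hairpins against FTO (shFTO, n = 3) or a control (shNS, n = 3) came by lentivirus into cells that were selected with puromycin at 1 µg/ml for 1 week, and the labels name no clone. The compounds are presented as inhibitors of FTO, an enzyme that removes the methyl mark m6A from RNA. CS1 is taken to be bisantrene and CS2 brequinar, an inhibitor of pyrimidine synthesis, from general knowledge and not from the labels. The replicates are called biological by the submitters. TPM keep no read counts, so the depth is unknown and its error cannot be given.

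FTO, the target of the hairpin, had 8.12, 7.49 and 8.35 TPM in the shFTO libraries, against 31.3, 30.8 and 32.8 TPM in the shNS libraries, with no overlap (log2 fold change -1.86, limma adjusted p = 7.38e-12). The myeloid genes PTPRC, SPI1, CD33 and CEBPA lay between 65.8 TPM (CD33) and 310.0 TPM (CEBPA) in every library, whereas CD14 stayed at or below 0.98 TPM and MPO at or below 0.60 TPM. The summed level of 10 myeloid markers was 2616 to 3179 TPM in shFTO libraries against 702 to 723 TPM in shNS libraries, and 929 to 959 TPM with CS1 and 901 to 962 TPM with CS2 against 660 to 672 TPM with DMSO. Of 10 listed, 8 averaged at least 1 TPM with shFTO, CS1 and CS2, against 7 with shNS and DMSO. Lysozyme (LYZ), with up to 2579 TPM, made up most of the shFTO sum. Of 6 lymphocyte markers, CD3E was at 0 in every library and NKG7, at 234 to 485 TPM, carried the sum, which was 460 to 494 TPM with CS1 and 429 to 451 TPM with CS2 against 263 to 281 TPM with DMSO, and 240 to 257 TPM with shFTO against 446 to 466 TPM with shNS, with no overlap in any of these. The 6 erythroid and megakaryocyte markers summed to at most 0.28 TPM and the 7 epithelial and fibroblast markers to at most 5.15 TPM in any library. The part of these marker changes in the results below was not tested, and in bulk RNA fewer cells of a type and less RNA per cell cannot be told apart.

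As background, RNA polymerase I transcribes the ribosomal DNA into a long precursor, which snoRNPs modify and guide to its first cleavages while the small subunit processome forms on it. Later factors trim and fold the separated precursors, carry out quality checks and release the small and large subunits for export. Leukaemia cells that divide quickly depend on this supply, MYC is a known activator of many of the genes, and NPM1 is among the genes most often mutated in acute myeloid leukaemia.

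Most of the 57 genes stood lower in all of the perturbed groups than in their controls. With the FTO hairpin 56 fell and 0 rose, where 24.5% of all tested entries fell and 31.9% rose. With CS2, 50 fell and 4 rose, where 24.6% of all tested entries fell and 49.5% rose. With CS1, 32 fell and 2 rose, where 14.3% of all tested entries fell and 37.5% rose. Ribosomal RNA entries held 1.04% to 1.33% of the TPM with CS1 and 0.828% to 2.95% with CS2, against 1.77% to 4.58% with DMSO, and mitochondrial-like entries held 6.49% to 6.84% with CS1 and 7.7% to 7.98% with CS2, against 8.04% to 8.39% with DMSO. For the hairpin libraries these shares were 2.53% to 3.37% and 9.08% to 9.56% with shFTO, against 1.75% to 4.48% and 9.5% to 9.63% with shNS. With both kinds of entry removed and the rest rescaled, 43 genes fell and 1 rose with CS1 (18.8% and 31.3% of the 15165 entries then tested), 51 fell and 4 rose with CS2 (25.5% and 47.4%), and 56 fell and 0 rose with shFTO (24.1% and 31.9%). A fall or rise here means an adjusted p under 0.05 in limma, from 1 fit to log2(TPM + 1) of all 16 libraries with Benjamini-Hochberg adjustment over all tested entries. The CS1 and CS2 comparisons share the DMSO libraries and are therefore not independent of each other.

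The sizes of the falls differed between the groups. The median log2 fold change of the 57 genes was -0.75 with CS2, where the median of all tested entries was 0.20. It was -0.68 with shFTO, where that of all tested entries was 0.07, and -0.23 with CS1, where that of all tested entries was 0.09. At least 2-fold lower were 13 genes with CS2 (4.68% of all tested entries), 5 with shFTO (0.843%) and 0 with CS1 (0.495%), and 0 of the 57 rose 2-fold (10.2%, 2.32% and 2.83% of all tested entries). Every treated library lay below every control library for 51 genes with CS2 (24.2% of all tested entries), 55 with shFTO (26.4%) and 37 with CS1 (15.7%).

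Because TPM are shares of a total, a shift common to all genes cannot be seen in them. Scaling every library to a common median moved the median of all tested entries to -0.03 with CS2, -0.01 with shFTO and -0.09 with CS1. Under that scaling 53 of the genes fell and 1 rose with CS2 (37.9% and 34.8% of all tested entries), 56 fell and 0 rose with shFTO (30.8% and 25.1%), and 52 fell and 0 rose with CS1 (35.1% and 21.4%). Of the genes below that did not pass with CS1, 20 passed as falls under it, so a missing CS1 call depends on the scaling. Set against the median of all tested entries, the 57 genes' median lay at -0.949 with CS2, -0.748 with shFTO and -0.325 with CS1. Median scaling moves all genes of a library by the same amount, so it cannot change this difference and is no check of it. Under quantile normalization, which can change it, the difference was -0.949 with CS2, -0.684 with shFTO and -0.314 with CS1.

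Together the 57 genes took 9320, 9289.9 and 10434 TPM in the CS1 libraries and 6666, 6613 and 6823 TPM in the CS2 libraries, against 11357, 11387, 12047 and 12289 TPM in the DMSO libraries. The 3 groups did not overlap, and CS2 was the lowest. In the hairpin pair the sums were 5506, 5433 and 6339 TPM with shFTO, against 8158, 8541 and 8397 TPM with shNS, again without overlap. NPM1 and NCL alone made up 1661 ± 26.7 TPM with CS2 (SD, n = 3), 3106 ± 261 TPM with CS1 (n = 3) and 4152 ± 208 TPM with DMSO (n = 4). Within groups some libraries stood apart: CS1 replicate 3 was the highest CS1 library for 55 of the 57 genes, and shFTO replicate 3 the highest shFTO library for 53. CS2 replicate 3 and DMSO replicate 4 were the highest of their groups for 37 genes each, and shNS replicate 1 was the lowest of its group for 45. Such counts were not taken over all tested entries, so these libraries may stand apart for other genes as well. MYC was also highest in CS1 replicate 3, at 140 TPM beside 109 and 107 TPM in the other CS1 libraries, and in shFTO replicate 3, at 209.6 TPM beside 141 and 127 TPM in the other shFTO libraries. FTO was at 8.35 TPM in shFTO replicate 3, beside 8.12 and 7.49 TPM in the other shFTO libraries. Why these libraries stood apart was not tested. Without CS1 replicate 3, 40 genes fell and 1 rose with CS1 (12.8% and 38.8% of all tested entries). Without shFTO replicate 3 the number that fell with shFTO was 56 (25.8%).

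**Figure D1:**
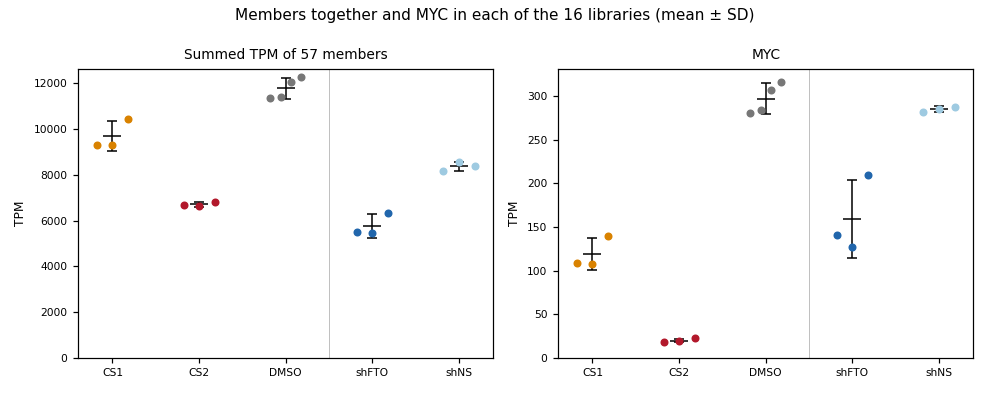
Summed TPM of the 57 genes (left) and TPM of MYC (right) in each of the 16 libraries; points are libraries, bars the group mean ± SD. The 3 CS2 libraries lie between 6613 and 6823 TPM in sum, below all CS1 and DMSO libraries, and the 3 shFTO libraries lie below all shNS libraries, with replicate 3 the highest of the shFTO group in both panels.

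**Figure D2:**
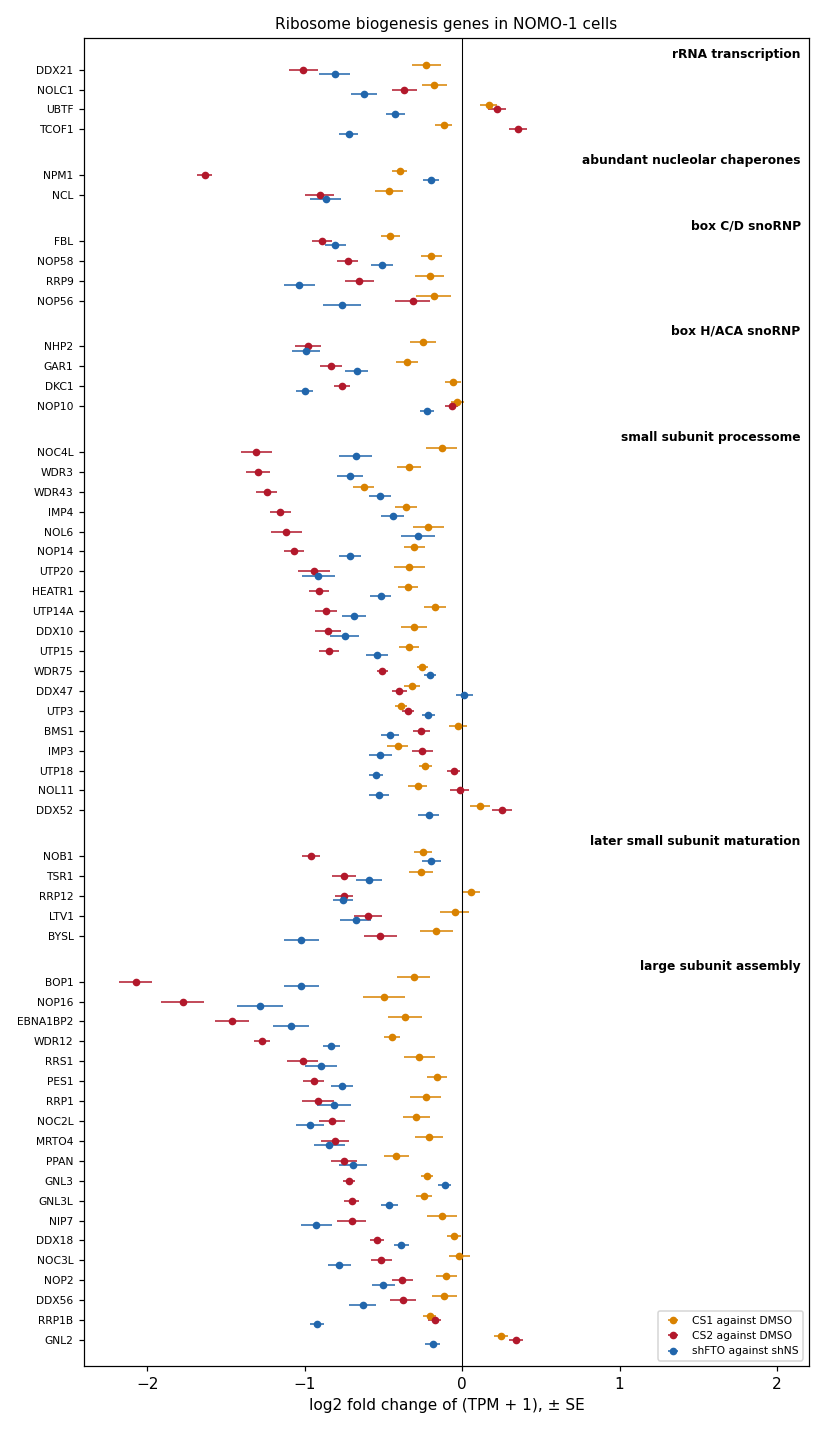
Log2 fold change of (TPM + 1) with its standard error for the 57 genes, grouped by role, for CS1 against DMSO, CS2 against DMSO and shFTO against shNS. CS2 values reach from -2.07 for BOP1 to 0.36 for TCOF1, shFTO values lie below 0 for all but DDX47, and CS1 values lie nearer to 0, from -0.62 for WDR43 to 0.25 for GNL2.

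The 2 genes for abundant nucleolar chaperones fell in all of the comparisons, in opposite order with CS2 and with shFTO. NPM1 encodes nucleophosmin, a chaperone for ribosomal particles and histones, and lies at chromosome 5, 171387116 to 171411137 (GRCh38). It had 1914, 1888 and 2160.4 TPM in the CS1 libraries and 860.0, 834 and 825 TPM in the CS2 libraries, against 2483, 2493, 2713 and 2766 TPM in the DMSO libraries. It had 1675, 1695 and 1644 TPM in the shFTO libraries, against 1885, 1961 and 1909.7 TPM in the shNS libraries. In both pairs of a treatment with its control the libraries were fully separated, and NPM1 was the most abundant of the 57 genes in every group. The CS2 mean was 32.1% of the DMSO mean and the CS1 mean 76.0%, while the shFTO mean was 87.1% of the shNS mean. The log2 fold changes were -1.64 ± 0.05 with CS2 (limma adjusted p = 4.34e-13), -0.40 ± 0.05 with CS1 (limma adjusted p = 7.02e-06) and -0.20 ± 0.05 with shFTO (limma adjusted p = 0.00415).

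NCL encodes nucleolin, which binds the ribosomal RNA precursor. It had 1059, 1049 and 1247 TPM in the CS1 libraries and 821, 797 and 847 TPM in the CS2 libraries, against 1499.5, 1473, 1572 and 1608 TPM in the DMSO libraries. With the hairpin pair it had 536, 499.8 and 706 TPM in the shFTO libraries, against 1018, 1082 and 1044 TPM in the shNS libraries. Both compounds and the hairpin left no overlap with their controls, and shFTO replicate 3 was the highest of its group. The log2 fold change was -0.90 ± 0.09 with CS2, -0.46 ± 0.09 with CS1 and -0.87 ± 0.10 with shFTO (limma adjusted p = 2.81e-07, 0.000577 and 2.71e-06). NPM1 thus fell by more than NCL on this scale with CS2 and by less with shFTO. With CS1 the values of NPM1 and NCL lay close together (-0.40 and -0.46).

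The 4 genes tied to ribosomal RNA transcription split under the compounds and fell together with the hairpin. UBTF encodes the upstream binding factor that keeps ribosomal DNA open for RNA polymerase I (chromosome 17, 44205033 to 44221626, GRCh38). It had 106, 103 and 109 TPM in the CS1 libraries and 110.5, 108 and 112 TPM in the CS2 libraries, against 93.9, 92.5, 94.0 and 97.1 TPM in the DMSO libraries. All libraries of both compounds lay above all DMSO libraries, and the log2 fold changes were 0.17 ± 0.06 with CS1 (limma adjusted p = 0.0203) and 0.22 ± 0.06 with CS2 (limma adjusted p = 0.0022), but they turned to -0.01 for both compounds under median scaling and to -0.02 for CS2 under quantile normalization. The CS1 call was also lost without CS1 replicate 1 or without CS1 replicate 3 (highest adjusted p = 0.0719). With the hairpin UBTF had 46.1, 42.4 and 53.5 TPM in the shFTO libraries, against 62.4, 64.7 and 63.6 TPM in the shNS libraries, again without overlap and in the other direction (-0.42 ± 0.06, limma adjusted p = 2.45e-05).

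TCOF1 encodes treacle, a nucleolar scaffold for RNA polymerase I transcription and the gene affected in Treacher Collins syndrome (chromosome 5, 150357629 to 150400308, GRCh38). It had 70.2, 72.3 and 77.2 TPM in the CS1 libraries and 102, 98.4 and 105 TPM in the CS2 libraries, against 77.5, 77.6, 79.5 and 83.3 TPM in the DMSO libraries. The CS2 libraries stood above all others, and the CS1 libraries lay just below the DMSO range. TCOF1 rose with CS2 (0.36 ± 0.06, limma adjusted p = 3.01e-05), although the call was lost under median scaling (0.13, adjusted p = 0.101) and quantile normalization (0.12, adjusted p = 0.088), and did not pass with CS1 (-0.12 ± 0.06, limma adjusted p = 0.0927). With CS1 it passed as a fall under median scaling (-0.294), quantile normalization (-0.233) and trimmed-mean scaling (-0.233), and after removal of ribosomal RNA and mitochondrial-like entries (-0.173). In the hairpin pair it had 38.6, 36.0 and 43.8 TPM in the shFTO libraries, against 63.7, 66.8 and 65.8 TPM in the shNS libraries, a fall without overlap (-0.72 ± 0.06, limma adjusted p = 1.18e-07).

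NOLC1, a chaperone that carries snoRNPs and also acts in RNA polymerase I transcription, had 256, 262 and 289.8 TPM in the CS1 libraries and 234, 229 and 244 TPM in the CS2 libraries, against 303, 294, 303 and 317 TPM in the DMSO libraries. The 3 groups did not overlap, with CS2 the lowest and DMSO the highest. NOLC1 fell with CS2 (-0.37 ± 0.08, limma adjusted p = 0.000606). The CS1 value was -0.18 ± 0.08 (limma adjusted p = 0.0759), and passed at adjusted p = 0.0413 without CS1 replicate 3. It also passed under median scaling (-0.354), quantile normalization (-0.215) and trimmed-mean scaling (-0.294), and after removal of ribosomal RNA and mitochondrial-like entries (-0.233). Hairpin-carrying cells had 129.7, 126 and 169 TPM in the shFTO libraries, against 208, 224 and 218 TPM in the shNS libraries (-0.62 ± 0.08, limma adjusted p = 1.68e-05).

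DDX21 encodes an RNA helicase that links RNA polymerase I transcription with processing of its product. It had 201, 200.1 and 232 TPM in the CS1 libraries and 121, 118 and 127 TPM in the CS2 libraries, against 239.7, 238, 249.7 and 258 TPM in the DMSO libraries. The CS2 mean was 49.5% of the DMSO mean, and the CS1 libraries lay just below the DMSO range. With the hairpin DDX21 had 71.9, 68.4 and 97.6 TPM in the shFTO libraries, against 131, 143 and 141 TPM in the shNS libraries. It fell with CS2 (-1.01 ± 0.09, limma adjusted p = 1.05e-07) and with shFTO (-0.81 ± 0.10, limma adjusted p = 6.74e-06), and the CS1 value was -0.23 ± 0.09 (limma adjusted p = 0.0545, and 0.0256 without CS1 replicate 3). The CS1 value also passed under median scaling (-0.404), quantile normalization (-0.297) and trimmed-mean scaling (-0.344), and after removal of ribosomal RNA and mitochondrial-like entries (-0.283).

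Proteins of the box C/D snoRNPs, which place methyl groups on ribosomal RNA, fell with CS2 (24.6% of all tested entries) and with the hairpin (24.5%) for 4 of 4 genes, and with CS1 (14.3%) for 2 of 4. FBL encodes fibrillarin, the methyltransferase of these particles. It had 471, 466 and 539 TPM in the CS1 libraries and 359, 366 and 364 TPM in the CS2 libraries, against 638, 641, 701 and 718 TPM in the DMSO libraries. With the hairpin pair FBL had 303, 285 and 340.2 TPM in the shFTO libraries, against 527, 549.6 and 542 TPM in the shNS libraries. The 3 compound and solvent groups were fully ordered, CS2 lowest and DMSO highest, and the hairpin groups were separate too. The log2 fold change was -0.89 ± 0.06 with CS2, -0.46 ± 0.06 with CS1 and -0.80 ± 0.07 with shFTO (limma adjusted p = 4.28e-09, 2.15e-05 and 1.3e-07).

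NOP56, a scaffold protein of the same particles, had 426, 429 and 447 TPM in the CS1 libraries and 387, 395 and 405 TPM in the CS2 libraries, against 466, 476, 516 and 511 TPM in the DMSO libraries. It fell only slightly with CS2 (-0.31 ± 0.11, limma adjusted p = 0.0203, and 0.0569 without CS2 replicate 1), and the CS1 value was -0.18 ± 0.11 (limma adjusted p = 0.197). NOP56 passed as a fall with CS1 under median scaling (-0.358) and trimmed-mean scaling (-0.298), and in the fit of only the compared groups (-0.18). Its hairpin values were 151, 142 and 230.2 TPM in the shFTO libraries, against 288, 292 and 292 TPM in the shNS libraries, where shFTO replicate 3 lay well above the other 2 libraries (-0.76 ± 0.12, limma adjusted p = 7e-05). Exons of NOP56 overlap snoRNA genes on the same strand in GENCODE release 29. Its partner NOP58 changed by -0.73 with CS2, -0.20 with CS1 and -0.51 with shFTO, all of them falls, and the CS1 call was lost without DMSO replicate 3, CS1 replicate 1 or CS1 replicate 2 (highest adjusted p = 0.0866).

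RRP9, a protein of the particle that guides the earliest cleavages of the precursor, had 61.8, 58.4 and 70.9 TPM in the CS1 libraries and 47.0, 42.8 and 49.2 TPM in the CS2 libraries, against 67.8, 69.5, 77.2 and 79.6 TPM in the DMSO libraries. With shFTO and shNS it had 24.3, 22.2 and 30.2 TPM in the shFTO libraries, against 52.6, 52.2 and 54.3 TPM in the shNS libraries, which put the shFTO mean at 48.2% of the shNS mean. RRP9 was among the 3 strongest falls with shFTO (-1.03 ± 0.10, limma adjusted p = 5.18e-07). It also fell with CS2 (-0.65 ± 0.09, limma adjusted p = 1.06e-05), while the CS1 libraries overlapped the DMSO range (-0.21 ± 0.09, limma adjusted p = 0.0746, and 0.0259 without CS1 replicate 3). The CS1 value also passed under median scaling (-0.384), quantile normalization (-0.324) and trimmed-mean scaling (-0.322), and after removal of ribosomal RNA and mitochondrial-like entries (-0.262).

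The box H/ACA snoRNPs turn uridines of ribosomal RNA into pseudouridines, and their 4 core proteins did not move alike. NOP10, the smallest of them, had 569, 582 and 614 TPM in the CS1 libraries and 571, 574 and 576 TPM in the CS2 libraries, against 601, 594, 600.2 and 609 TPM in the DMSO libraries. The CS2 libraries lay just below the DMSO range and the CS1 libraries straddled it, and NOP10 passed with neither CS2 (-0.07 ± 0.04, limma adjusted p = 0.148) nor CS1 (-0.03 ± 0.04, limma adjusted p = 0.558). These calls depended on the scaling: NOP10 passed as a fall with both compounds under median scaling (-0.30 with CS2 and -0.21 with CS1) and trimmed-mean scaling (-0.27 and -0.15), and with CS2 alone under quantile normalization (-0.10), after removal of ribosomal RNA and mitochondrial-like entries (-0.10) and in the fit of only the compared groups (-0.07). In the hairpin pair it had 397, 409.8 and 452 TPM in the shFTO libraries, against 468, 503 and 497 TPM in the shNS libraries, a fall (-0.22 ± 0.04, limma adjusted p = 0.000483).

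DKC1 encodes dyskerin, the pseudouridine synthase itself and also a component of telomerase. It had 226, 219 and 246 TPM in the CS1 libraries and 138, 139.6 and 144 TPM in the CS2 libraries, against 227, 229.8, 252 and 249 TPM in the DMSO libraries. The CS1 libraries overlapped the DMSO libraries and the CS2 libraries lay far below both. With the hairpin DKC1 had 85.5, 85.6 and 94.0 TPM in the shFTO libraries, against 169.9, 181 and 181 TPM in the shNS libraries. It fell with CS2 (-0.76 ± 0.05, limma adjusted p = 2.29e-09) and shFTO (-0.998 ± 0.05, limma adjusted p = 1.63e-09), against -0.06 ± 0.05 with CS1 (limma adjusted p = 0.372). With CS1 it passed as a fall under median scaling (-0.235), quantile normalization (-0.129) and trimmed-mean scaling (-0.174), and after removal of ribosomal RNA and mitochondrial-like entries (-0.114). DKC1 exons overlap snoRNA genes on the same strand. NHP2 fell too, with a log2 fold change of -0.98 with CS2, -0.99 with shFTO and -0.25 with CS1, the last not called without DMSO replicate 4, CS1 replicate 1 or CS1 replicate 2 (highest adjusted p = 0.112). GAR1 changed by -0.83 with CS2, -0.67 with shFTO and -0.35 with CS1, and all of these passed.

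**Figure D3:**
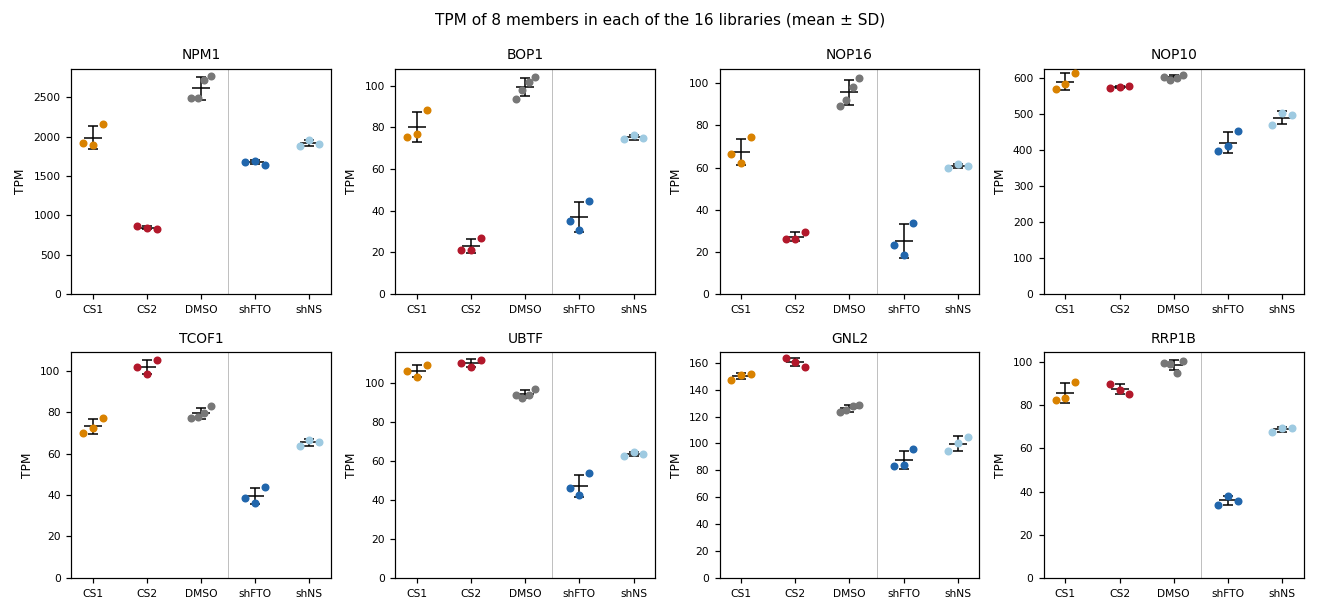
TPM of 8 of the genes in each of the 16 libraries; points are libraries, bars the group mean ± SD, and every axis starts at 0. NPM1, BOP1 and NOP16 are lowest with CS2 among the compound and solvent groups, NOP10 is nearly level there, TCOF1, UBTF and GNL2 are highest with CS2, and all 8 are lower with shFTO than with shNS.

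The small subunit processome, the large particle that assembles on the precursor and cuts out the small subunit RNA, was represented by 19 genes. Of these, 16 fell and 1 rose with CS2 (24.6% and 49.5% of all tested entries), 18 fell with shFTO (24.5%) and 14 fell with CS1 (14.3%). The median log2 fold change of the 19 was -0.85 with CS2, -0.52 with shFTO and -0.31 with CS1. The lowest value with CS2 was that of NOC4L, a processome subunit with 11.7 TPM on average with CS2 and 30.6 TPM with DMSO (-1.31 ± 0.10, limma adjusted p = 9.72e-09). WDR3, NOL6 and IMP4, further subunits, fell by more than 2-fold with CS2 as well (-1.30, -1.12 and -1.15).

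WDR43, a WD-repeat subunit of the processome, had the strongest fall of the 57 genes with CS1 (chromosome 2, 28894643 to 28948222, GRCh38). It had 78.4, 79.3 and 89.0 TPM in the CS1 libraries and 51.5, 54.4 and 53.7 TPM in the CS2 libraries, against 127, 123, 129 and 129 TPM in the DMSO libraries. The 3 groups did not overlap, with CS2 the lowest and DMSO the highest. WDR43 changed by -0.62 ± 0.07 with CS1 (limma adjusted p = 1.5e-06) and -1.24 ± 0.07 with CS2 (limma adjusted p = 1.69e-10). Hairpin-carrying cells had 48.0, 49.7 and 60.9 TPM in the shFTO libraries, against 75.1, 75.8 and 77.1 TPM in the shNS libraries (-0.52 ± 0.07, limma adjusted p = 1.51e-05), with shFTO replicate 3 closest to the control range.

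WDR75, a second WD-repeat subunit and one of the most abundant genes of the group, had 108, 111 and 109 TPM in the CS1 libraries and 93.6, 92.1 and 89.1 TPM in the CS2 libraries, against 129.9, 134, 128 and 130.0 TPM in the DMSO libraries. Libraries of the same group lay close together and the groups did not overlap. It fell with both compounds, at -0.51 ± 0.03 with CS2 and -0.25 ± 0.03 with CS1 on the log2 scale (limma adjusted p = 3.3e-09 and 2.19e-05). Its hairpin values were 77.9, 82.2 and 86.8 TPM in the shFTO libraries, against 93.3, 95.4 and 95.6 TPM in the shNS libraries (-0.20 ± 0.04, limma adjusted p = 0.000268).

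NOP14, which works with NOC4L in the yeast processome, had 97.1, 99.0 and 109 TPM in the CS1 libraries and 58.5, 56.9 and 62.8 TPM in the CS2 libraries, against 123, 122, 127 and 130.4 TPM in the DMSO libraries. With shFTO and shNS it had 50.6, 48.1 and 60.9 TPM in the shFTO libraries, against 84.7, 88.9 and 88.0 TPM in the shNS libraries. None of the treated libraries reached its control range. NOP14 fell, with log2 fold changes of -1.07 ± 0.07 with CS2, -0.30 ± 0.07 with CS1 and -0.71 ± 0.07 with shFTO (limma adjusted p = 1.01e-09, 0.00124 and 7.95e-07). Its exons overlap the antisense gene NOP14-AS1, and whether the counting used strand is not given in the sources used here.

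A few processome genes departed from the common pattern. DDX52, an RNA helicase, had 26.7, 27.9 and 25.7 TPM in the CS1 libraries and 31.7, 30.6 and 27.0 TPM in the CS2 libraries, against 26.6, 24.7, 23.7 and 23.8 TPM in the DMSO libraries. It rose with CS2 (0.26 ± 0.06, limma adjusted p = 0.00182), where 0 libraries overlapped, but not under median scaling, quantile normalization or trimmed-mean scaling (0.03, 0.04 and 0.06), and it fell with shFTO (-0.21 ± 0.07, limma adjusted p = 0.0142; highest adjusted p = 0.0604 without shFTO replicate 1 or shFTO replicate 2). In the hairpin pair it had 15.8, 15.8 and 18.2 TPM in the shFTO libraries, against 18.9, 19.3 and 19.8 TPM in the shNS libraries. UTP18 and NOL11, subunits of early processome modules, fell with CS1 (-0.23 and -0.28) and shFTO (-0.55 and -0.53), whereas their CS2 values were -0.05 (limma adjusted p = 0.248) and -0.02 (limma adjusted p = 0.814). Both passed as falls with CS2 under median scaling (-0.28 and -0.25), quantile normalization (-0.29 and -0.25) and trimmed-mean scaling (-0.25 and -0.22).

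DDX47, another RNA helicase of ribosome assembly, was the 1 gene that did not pass with the hairpin. It had 61.5, 62.3 and 55.0 TPM in the shFTO libraries, against 56.3, 61.1 and 59.5 TPM in the shNS libraries, overlapping groups in which shFTO replicate 3 was the lowest library (0.01 ± 0.05, limma adjusted p = 0.83). The sign of this value turned without shNS replicate 1, shFTO replicate 1 or shFTO replicate 2, and under median scaling (-0.07) and trimmed-mean scaling (-0.05). With the compounds it had 50.02, 51.8 and 52.7 TPM in the CS1 libraries and 49.1, 47.7 and 49.1 TPM in the CS2 libraries, against 62.9, 60.4, 66.3 and 68.3 TPM in the DMSO libraries, and it fell (log2 fold change -0.32 ± 0.05 with CS1 and -0.40 ± 0.05 with CS2; limma adjusted p = 8.05e-05 and 3.08e-06). DDX47 exons overlap the neighbouring gene APOLD1 on the same strand. NOL6 fell with shFTO only narrowly (-0.28 ± 0.11, limma adjusted p = 0.0373), a call lost without shNS replicate 1, 2 or 3 or without shFTO replicate 1 or 2 (highest adjusted p = 0.132).

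Later maturation of the small subunit was represented by 5 genes. All of them fell with CS2 and with shFTO (24.6% and 24.5% of all tested entries), and 2 fell with CS1 (14.3%). BYSL encodes bystin, needed for late small subunit assembly, and was the most abundant of the 5. It had 425, 421 and 487 TPM in the CS1 libraries and 331, 339 and 371 TPM in the CS2 libraries, against 474, 491, 503 and 522 TPM in the DMSO libraries. Hairpin-carrying cells had 165, 149 and 231 TPM in the shFTO libraries, against 357, 368 and 363 TPM in the shNS libraries, which put the shFTO mean at 50% of the shNS mean. CS1 replicate 3 reached into the DMSO range, the CS2 libraries did not, and the hairpin groups were apart. BYSL fell with shFTO (-1.02 ± 0.11, limma adjusted p = 2.46e-06) and CS2 (-0.52 ± 0.11, limma adjusted p = 0.0004), against -0.16 ± 0.11 with CS1 (limma adjusted p = 0.213).

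LTV1, an assembly factor that leaves the small subunit before it matures, had 133, 128 and 149.9 TPM in the CS1 libraries and 94.99, 91.2 and 92.7 TPM in the CS2 libraries, against 135, 139, 146 and 145 TPM in the DMSO libraries. Its hairpin values were 55.5, 53.1 and 75.5 TPM in the shFTO libraries, against 92.8, 99.1 and 101 TPM in the shNS libraries. CS1 and DMSO overlapped and CS2 lay below both. LTV1 fell with CS2 (-0.60 ± 0.09, limma adjusted p = 2.42e-05) and shFTO (-0.68 ± 0.10, limma adjusted p = 3.01e-05), against -0.05 ± 0.09 with CS1 (limma adjusted p = 0.697). NOB1, the endonuclease that makes the final cut of the small subunit RNA, had 72.0, 67.8 and 78.4 TPM in the CS1 libraries and 41.2, 43.7 and 47.5 TPM in the CS2 libraries, against 83.4, 83.0, 87.3 and 92.5 TPM in the DMSO libraries, with all 3 groups apart. With the hairpin NOB1 had 67.7, 65.4 and 64.6 TPM in the shFTO libraries, against 75.9, 78.2 and 72.8 TPM in the shNS libraries. It fell, with log2 fold changes of -0.96 ± 0.06 with CS2, -0.25 ± 0.06 with CS1 and -0.20 ± 0.06 with shFTO (limma adjusted p = 5.47e-10, 0.00165 and 0.0114). TSR1 fell in all of these comparisons (-0.75 with CS2, -0.26 with CS1, -0.59 with shFTO), and RRP12, with -0.75 with CS2 and -0.76 with shFTO, did not pass with CS1 (0.05, limma adjusted p = 0.46, below 0 without CS1 replicate 3 and under 4 of the scalings).

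The 19 genes of large subunit assembly included the lowest log2 fold change of the 57 with CS2 (BOP1) and with shFTO (NOP16), but not with CS1 (WDR43 of the processome). With CS2 18 fell and 1 rose (24.6% and 49.5% of all tested entries), with shFTO 19 fell (24.5%), and with CS1 10 fell and 1 rose (14.3% and 37.5%). The median log2 fold change of the 19 was -0.75 with CS2, -0.81 with shFTO and -0.22 with CS1. BOP1, a subunit of the complex with PES1 and WDR12 that is needed to process the large subunit precursor, had 75.5, 76.9 and 88.3 TPM in the CS1 libraries and 21.3, 20.9 and 26.7 TPM in the CS2 libraries, against 93.7, 98.1, 102 and 104 TPM in the DMSO libraries. The CS2 mean was 23.1% of the DMSO mean, and all CS2 libraries lay below all CS1 libraries. BOP1 changed by -2.07 ± 0.10 with CS2 (limma adjusted p = 9.82e-11) and -0.31 ± 0.10 with CS1 (limma adjusted p = 0.0217), the second call lost without DMSO replicate 4, CS1 replicate 1 or CS1 replicate 2 (highest adjusted p = 0.0874). With shFTO and shNS it had 35.2, 30.96 and 44.8 TPM in the shFTO libraries, against 74.4, 76.6 and 74.9 TPM in the shNS libraries (-1.02 ± 0.11, limma adjusted p = 2.03e-06), with shFTO replicate 3 the highest of its group.

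NOP16, a large subunit factor known as a MYC target, was the lowest of the 57 with the hairpin and the second lowest with either compound (chromosome 5, 176383938 to 176388975, GRCh38). It had 66.3, 62.2 and 74.4 TPM in the CS1 libraries and 26.0, 26.2 and 29.5 TPM in the CS2 libraries, against 89.4, 92.2, 98.3 and 103 TPM in the DMSO libraries. In the hairpin pair it had 23.2, 18.4 and 33.9 TPM in the shFTO libraries, against 59.8, 61.6 and 60.6 TPM in the shNS libraries, with shFTO replicate 3 again the highest of its group. No treated library overlapped its controls. NOP16 changed by -1.78 ± 0.14 with CS2, -1.28 ± 0.15 with shFTO and -0.50 ± 0.14 with CS1 (limma adjusted p = 1.25e-08, 3.13e-06 and 0.0068). Its exons overlap those of HIGD2A on the other strand.

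EBNA1BP2, a nucleolar partner in large subunit assembly, had 177, 177 and 216 TPM in the CS1 libraries and 83.6, 86.6 and 93.2 TPM in the CS2 libraries, against 231, 234, 249.5 and 259 TPM in the DMSO libraries. Hairpin-carrying cells had 52.4, 52.9 and 76.5 TPM in the shFTO libraries, against 123, 130.0 and 130.2 TPM in the shNS libraries. The groups were apart in each comparison, though CS1 replicate 3 was nearest to the DMSO range and shFTO replicate 3 nearest to the shNS range. It changed by -1.46 ± 0.11 with CS2, -1.09 ± 0.12 with shFTO and -0.36 ± 0.11 with CS1 (limma adjusted p = 7.96e-09, 1.58e-06 and 0.0107). The CS1 call was lost without CS1 replicate 1 or CS1 replicate 2 (highest adjusted p = 0.0518).

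Of the 3 nucleolar GTPases of large subunit assembly, GNL3 and GNL3L fell and GNL2 rose with both compounds. GNL3 encodes nucleostemin, which shuttles between nucleolus and nucleoplasm. It had 215, 221 and 237 TPM in the CS1 libraries and 160.2, 152 and 164 TPM in the CS2 libraries, against 256, 254, 266 and 271 TPM in the DMSO libraries, with CS2 lowest and no overlap. Its hairpin values were 192, 197 and 202 TPM in the shFTO libraries, against 206, 216 and 217 TPM in the shNS libraries, the smallest of the called falls there (-0.11 ± 0.04, limma adjusted p = 0.0347), and this call was lost without shNS replicate 2, shNS replicate 3, shFTO replicate 1 or shFTO replicate 2 (highest adjusted p = 0.114). GNL3 fell, with log2 fold changes of -0.72 ± 0.04 with CS2 and -0.22 ± 0.04 with CS1 (limma adjusted p = 2.4e-10 and 0.000213). GNL3L, a relative of nucleostemin, fell with CS2, CS1 and shFTO (-0.70, -0.24 and -0.46).

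GNL2, whose yeast counterpart readies the precursor of the large subunit for export, was the gene that rose most with CS1 (chromosome 1, 37566816 to 37595935, GRCh38). It had 147, 151 and 152 TPM in the CS1 libraries and 164, 161 and 157 TPM in the CS2 libraries, against 123, 125, 128 and 129 TPM in the DMSO libraries. All CS1 and all CS2 libraries lay above all DMSO libraries. The rises were 0.25 ± 0.05 with CS1 (limma adjusted p = 0.000382) and 0.34 ± 0.05 with CS2 (limma adjusted p = 6.67e-06). Under the scalings tried the CS2 rise passed throughout (from 0.11 under median scaling to 0.31), while the CS1 rise did not pass under median scaling (0.07, adjusted p = 0.236). With the hairpin GNL2 had 83.3, 83.8 and 95.6 TPM in the shFTO libraries, against 94.1, 100.4 and 105 TPM in the shNS libraries, groups that overlapped at shFTO replicate 3 and shNS replicate 1 (-0.19 ± 0.05, limma adjusted p = 0.00442).

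The other large subunit genes fell with CS2, with log2 fold changes between -1.27 for WDR12 and -0.17 for RRP1B. WDR12 and PES1, the partners of BOP1, changed by -1.27 and -0.94 with CS2 and by -0.83 and -0.76 with shFTO. PES1 did not pass with CS1 (-0.16, limma adjusted p = 0.0523, but at most 0.0499 without DMSO replicate 1, DMSO replicate 2 or CS1 replicate 3). RRP1B, a nucleolar regulator of protein phosphatase, fell most with the hairpin (-0.92, against -0.17 with CS2 and -0.21 with CS1). NIP7, NOC2L, RRS1, MRTO4 and RRP1 fell with shFTO, with log2 fold changes of -0.93, -0.96, -0.90, -0.84 and -0.81. Of these NOC2L and RRS1 also fell with CS1, calls lost without CS1 replicate 1 for NOC2L (adjusted p = 0.0507) and without DMSO replicate 3, DMSO replicate 4, CS1 replicate 1 or CS1 replicate 2 for RRS1 (highest adjusted p = 0.113).

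Set directly against each other, CS2 and CS1 differed for most of the genes, at doses that also differed (500 nM and 100 nM). In CS2 against CS1, 44 of the 57 genes were lower and 3 higher, where 26.2% of all tested entries were lower and 40.4% higher. The median was -0.51, where that of all tested entries was 0.11. At least 2-fold lower with CS2 than with CS1 were BOP1 (-1.76 ± 0.11), NOP16 (-1.28 ± 0.15), NPM1 (-1.24 ± 0.05), NOC4L (-1.18 ± 0.10) and EBNA1BP2 (-1.10), where 3.95% of all tested entries were, the largest limma adjusted p of the first 4 being 1.91e-06. The 3 that were higher with CS2 were TCOF1 (0.47 ± 0.06, limma adjusted p = 5.05e-06), NOL11 (0.27 ± 0.06, limma adjusted p = 0.00166) and UTP18 (0.18 ± 0.04, limma adjusted p = 0.00215), the last not under quantile normalization or trimmed-mean scaling (0.06 and 0.10). Dose and compound cannot be told apart in this comparison.

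The response to each compound was also tested against the response to the hairpin, within the same limma fit, as (compound minus DMSO) minus (shFTO minus shNS). For CS2, 18 of the 57 genes had a lower response and 15 a higher one than with the hairpin, where 23.7% of all tested entries were lower and 39.8% higher. Under median scaling 24 were lower and 7 higher (31.3% and 32.6% of all tested entries), under quantile normalization 28 and 7 (30.8% and 32.4%), and under trimmed-mean scaling 24 and 7 (29.8% and 33.6%). Without shFTO replicate 1, 21 were lower and 9 higher (23.2% and 38% of all tested entries). Without shFTO replicate 3, 16 were lower and 22 higher (23.5% and 40.9%). The median difference of the 57 genes was -0.103 with all libraries and 0.0413 without shFTO replicate 3, so the balance of the 2 directions hung on that library. For CS1, 3 genes had a lower response and 44 a higher one, where 18.3% of all tested entries were lower and 31% higher. Under median scaling 5 were lower and 35 higher (27.2% and 25.1% of all tested entries), under quantile normalization 5 and 37 (25% and 26.3%), and under trimmed-mean scaling 3 and 37 (23% and 28%). Without CS1 replicate 1 or without shNS replicate 1, the count of 3 lower responses fell to 1 (16.8% and 16.1% of all tested entries). Hairpin cells also went through infection and selection, which the compound-treated cells did not, and this cannot be told apart from the difference between the agents.

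NPM1 had the largest difference towards a stronger fall with CS2 (-1.44 ± 0.07, limma adjusted p = 2.64e-10). BOP1 (-1.05 ± 0.15), NOL6 (-0.84 ± 0.15), NOB1 (-0.76 ± 0.08), WDR43 (-0.72 ± 0.10), IMP4 (-0.71 ± 0.10), NOC4L (-0.63 ± 0.14) and GNL3 (-0.61 ± 0.06) followed, with limma adjusted p at most 0.00127. In the other direction TCOF1 had the largest difference (1.08 ± 0.08, limma adjusted p = 2.04e-08), ahead of RRP1B (0.75 ± 0.06, limma adjusted p = 6.13e-08), UBTF (0.64 ± 0.08, limma adjusted p = 5.39e-06) and GNL2 (0.53 ± 0.07, limma adjusted p = 5.6e-06). NOL11, BYSL and UTP18 had differences of 0.51, 0.50 and 0.49; that of BYSL did not pass under median scaling, quantile normalization or trimmed-mean scaling (0.36, 0.27 and 0.37).

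For CS1 the largest differences towards a weaker fall than with the hairpin were those of DKC1 (0.94 ± 0.07, limma adjusted p = 1.35e-07), BYSL (0.86 ± 0.15), RRP9 (0.83 ± 0.13), RRP12 (0.81 ± 0.08) and NIP7 (0.80 ± 0.14). The 3 genes with a lower response to CS1 were DDX47 (-0.33 ± 0.07, limma adjusted p = 0.00154), NPM1 (-0.20 ± 0.07, limma adjusted p = 0.031) and UTP3 (-0.17 ± 0.06, limma adjusted p = 0.0191), a processome subunit. The NPM1 call was lost on leaving out any of 8 single libraries (highest adjusted p = 0.0838), namely DMSO replicates 3 and 4, CS1 replicates 1 and 2, shNS replicates 1 and 3, and shFTO replicates 1 and 2. The UTP3 call was lost without CS1 replicate 1 or shNS replicate 1 (highest adjusted p = 0.058).

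Across the 57 genes, the log2 fold changes with CS2 and with shFTO, which have separate controls, had a Pearson's r of 0.40 and a Spearman's rho of 0.36, where all 14951 tested entries had 0.24 and 0.21. For CS1 and shFTO these values were 0.21 and 0.14 over the 57 genes and 0.26 and 0.23 over all tested entries. These are descriptions across genes, which are not independent replicates and share libraries.

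**Figure D4:**
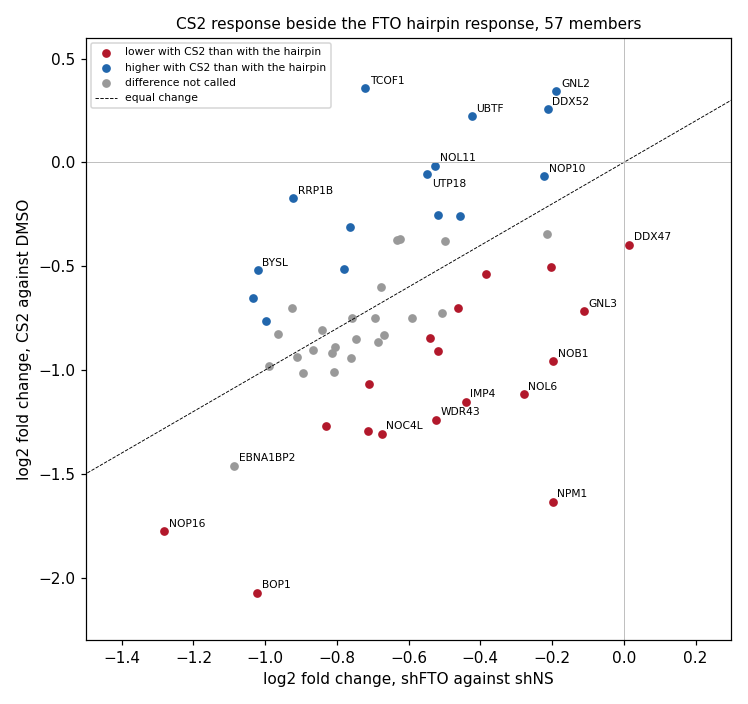
Log2 fold change with CS2 against DMSO (vertical) and with shFTO against shNS (horizontal) for the 57 genes, coloured by whether limma called the difference between the responses; the dashed line marks equal change. NPM1 lies farthest below the line (-1.64 with CS2, -0.20 with shFTO), and TCOF1 farthest above it (0.36 with CS2, -0.72 with shFTO).

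The balance between genes whose products work together differed by treatment. The ratio of NPM1 to NCL TPM was 1.78 ± 0.04 with CS1 and 1.02 ± 0.04 with CS2, against 1.70 ± 0.03 with DMSO (SD, n = 3, 3 and 4). It was 2.95 ± 0.55 with shFTO, ranging from 2.33 to 3.39, against 1.83 ± 0.02 with shNS (SD, n = 3 each). The CS2 range lay below and the shFTO range above all control libraries. The ratio of BOP1 to PES1, partners in a complex, was 0.957 ± 0.015 with CS1 and 0.475 ± 0.045 with CS2, against 1.06 ± 0.03 with DMSO. With shFTO it was 0.936 ± 0.091, against 1.12 ± 0.02 with shNS.

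NOP10 to NHP2, partners in the box H/ACA core, stood at 3.98 ± 0.32 with CS1 and 6.45 ± 0.09 with CS2, against 3.41 ± 0.17 with DMSO, and at 5.32 ± 0.40 with shFTO against 3.10 ± 0.10 with shNS. GNL2 to GNL3 stood at 0.670 ± 0.025 with CS1 and 1.01 ± 0.05 with CS2, against 0.482 ± 0.007 with DMSO. In the hairpin pair the ranges overlapped, at 0.444 ± 0.026 with shFTO against 0.469 ± 0.014 with shNS. A ratio within a library does not depend on the scaling of that library, but shows only unequal change and not which gene moved.

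**Figure D5:**
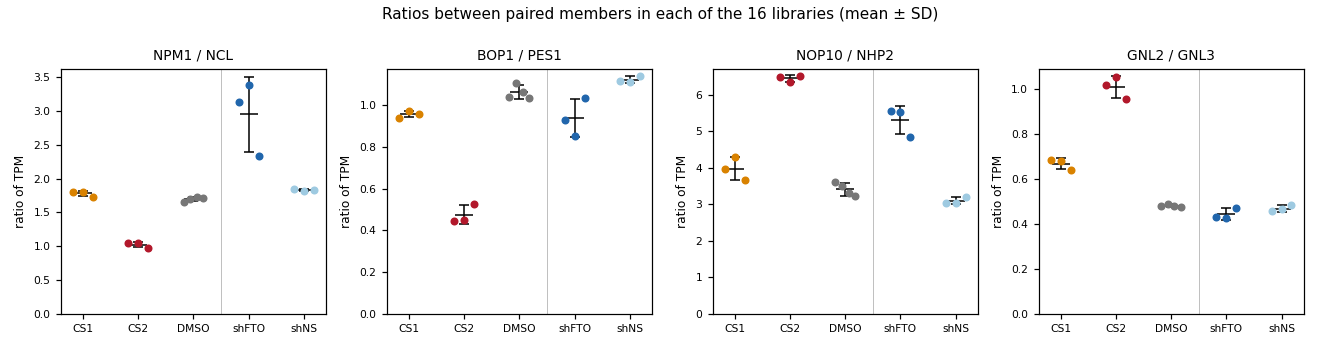
Ratio of TPM between paired genes in each of the 16 libraries; points are libraries, bars the group mean ± SD, and every axis starts at 0. NPM1/NCL is lowest with CS2 and highest with shFTO, BOP1/PES1 is lowest with CS2, NOP10/NHP2 is higher in all CS1 and CS2 libraries than in all DMSO libraries and in all shFTO than in all shNS libraries, and GNL2/GNL3 is raised with CS1 and CS2 and overlaps between shFTO and shNS.

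MYC itself had 109, 107 and 140 TPM with CS1 and 17.9, 19.2 and 22.1 TPM with CS2, against 280.3, 285, 307 and 317 TPM with DMSO, without overlap. With the hairpin it had 141, 127 and 209.6 TPM with shFTO, against 281, 285 and 288 TPM with shNS. Its log2 fold change was -3.85 ± 0.135 with CS2, -1.33 ± 0.135 with CS1 and -0.87 ± 0.145 with shFTO (limma adjusted p = 2.3e-12, 1.19e-06 and 0.000117). The response of MYC to CS1 did not pass as different from that to the hairpin (-0.45 ± 0.198, limma adjusted p = 0.0708), while that to CS2 was lower (-2.98 ± 0.198, limma adjusted p = 5.64e-09). Its part in the changes of the 57 genes was not tested.

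MYC binds the palindromic E-box CACGTG, so promoter sequences from RefSeq (GRCh38.p14), from 250 bases before to 50 after each annotated start, were searched for these letters, which read the same on both strands. Promoters were listed for 48 of the genes, and 21 of the 48 (43.8%) held CACGTG, where 12.3% of tested genes with a listed promoter and 8.77% of all genes with one did. The difference lay in the 50 bases after the start, where 16 of the 48 genes (33.3%) held it, beside 1.45% of tested and 1.12% of all genes. In the 250 bases before the start the shares were 14.6% of the genes, 11% of tested and 7.73% of all genes. Genes without a listed promoter were BOP1, DDX18, DDX52, NOLC1, NOP58, RRP12, RRP1B, RRS1 and TCOF1. The 30-base stretches below, written 5′ to 3′ on the strand of the gene with CACGTG in capitals, show where these letters stood in 10 of the genes described above, at the match nearest to a listed start.
WDR43: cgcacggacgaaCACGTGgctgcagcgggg
GNL2: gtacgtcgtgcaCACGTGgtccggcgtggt
GNL3: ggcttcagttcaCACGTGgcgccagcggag
FBL: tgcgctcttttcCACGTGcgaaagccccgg
NOP14: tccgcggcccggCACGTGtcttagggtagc
BYSL: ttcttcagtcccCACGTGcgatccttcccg
EBNA1BP2: tggcgctggagcgattcggtggCACGTGga
RRP9: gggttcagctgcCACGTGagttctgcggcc
DDX21: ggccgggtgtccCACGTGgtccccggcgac
NOP10: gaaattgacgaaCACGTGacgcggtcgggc

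The first base of CACGTG was base 4 after the start in WDR43 (chr2:28894658-28894687, plus strand) and GNL2 (chr1:37595917-37595946, minus strand), and base 7 in GNL3 (chr3:52686026-52686055, plus strand) and FBL (chr19:39846356-39846385, minus strand). It was base 16 in NOP14 (chr4:2963374-2963403, minus strand), base 29 in BYSL (chr6:41921515-41921544, plus strand) and base 43 in EBNA1BP2 (chr1:43172241-43172270, minus strand). It stood 5 bases before the start in RRP9 (chr3:51941892-51941921, minus strand), 11 before in NOP10 (chr15:34343130-34343159, minus strand) and 31 before in DDX21 (chr10:68956604-68956633, plus strand). A further match stood 170 bases before the start in NOP10, and 237 bases before the other listed start in EBNA1BP2. GNL3, DDX21 and EBNA1BP2 have a pair of listed starts, and each distance is from the start whose window held the match. Genes with these letters ranged from WDR43, the strongest fall with CS1, to GNL2, which rose with both compounds. The listed promoters of NPM1, NCL, NOP16 and UBTF held no CACGTG.

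The difference in response between genes with and without the letters was not tested. The median log2 fold change of the 21 genes with CACGTG and the 27 without was -0.83 and -0.76 with CS2, -0.69 and -0.63 with shFTO, and -0.21 and -0.28 with CS1. With CS1, 9 of the 21 and 19 of the 27 fell, with CS2 18 and 25, and with shFTO 21 and 26. Of all tested entries, 14.3% fell with CS1, 24.6% with CS2 and 24.5% with shFTO. A match in these windows is a description and not a bound site.

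Further ribosome biogenesis genes were read from 5 lists, which were also chosen with earlier results of these data known. Of these 107 genes, 90 fell and 5 rose with shFTO, 71 fell and 20 rose with CS2, and 45 fell and 11 rose with CS1. The shares that fell were 84.1%, 66.4% and 42.1%, where 24.5%, 24.6% and 14.3% of all tested entries fell in these comparisons. Among 18 genes for RNA polymerase I and its factors, 14 fell with shFTO, 10 with CS2 and 8 with CS1. Among 31 other small subunit factors, 28 fell with shFTO, 23 with CS2 and 14 with CS1, and among 34 other large subunit factors 32, 25 and 15 fell. Of 10 snoRNP assembly factors 7 fell with shFTO, 7 with CS2 and 4 with CS1. Of 14 genes of the RNA exosome, which trims precursor ends, 6 fell and 7 rose with CS2, 9 fell and 1 rose with shFTO, and 4 fell and 1 rose with CS1. Of all tested entries, 49.5% rose with CS2, 31.9% with shFTO and 37.5% with CS1.

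In each list the pair of genes with the smallest adjusted p for CS2 gave the following values. POLR1D, a subunit shared by RNA polymerases I and III, had 19.3 ± 1.49 TPM with CS2 and 71.7 ± 1.11 TPM with CS1 (SD, n = 3 each), against 62.7 ± 2.12 TPM with DMSO (SD, n = 4). It fell with CS2 (-1.65, limma adjusted p = 5.45e-13), and its log2 fold change was 0.19 with CS1 (limma adjusted p = 0.00519) and -0.02 with shFTO (limma adjusted p = 0.717). ZNRD1, another RNA polymerase I subunit, fell with CS2, CS1 and shFTO (-1.21, -0.19 and -0.36). TSR3 and RUVBL1, factors for small subunit modification and snoRNP assembly, fell with CS2 (-1.30 and -1.29) and shFTO (-0.36 and -0.72), against -0.08 and -0.08 with CS1, which did not pass. EXOSC7 of the exosome fell in all of these comparisons (-1.08 with CS2, -0.39 with CS1, -0.42 with shFTO). DCAF13, RSL24D1, RSL1D1, ZNHIT6 and EXOSC8 fell with CS2 and shFTO, with log2 fold changes for CS2 of -0.70, -0.65, -0.55, -0.86 and -0.53 and for shFTO of -0.55, -0.16, -0.28, -0.16 and -0.34. With CS1 RSL1D1 fell (-0.21, limma adjusted p = 5.31e-05). DCAF13, RSL24D1, ZNHIT6 and EXOSC8 did not pass with CS1 (-0.008, -0.05, -0.06 and 0.04).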

How the data were processed

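RNA of 16 NOMO-1 libraries was measured. The deposited values are TPM, 1 column per library in a table by the authors, and the unit was read from the values. RSEM 1.2.31 and GRCh38 were used, per the submitters' processing notes. The sources used here give no aligner, annotation or use of strand. All columns were matched to samples by name.

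Values were taken as log2(TPM + 1) without further scaling. The filter kept entries that reached 1 TPM or more in 3 or more libraries (14951 of 26830). The limma functions lmFit and eBayes (version 3.58.1, R 4.3.3, trend option) modelled each group by its own mean, all libraries in 1 fit. All tests had 2 sides, and p values were adjusted after Benjamini and Hochberg across the kept entries, with a threshold of 0.05. Fold changes on this scale understate changes of low genes. The fit was tested on simulated data. Sums, sequence searches and plots used Python 3.11.15.

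Alternatives were a pseudocount of 0.1, no filter, a filter of 5 TPM, median scaling, quantile normalization, removal of 4 ribosomal RNA and 12 mitochondrial-like entries, trimmed-mean scaling (30% trimmed on each side, chosen after seeing the data), a replicate block, only the compared groups, and leaving out each library.

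The genes and lists were chosen with earlier results of these data known. Values per library are given for the 2 most abundant genes of each role and for the 3 lowest and 3 highest called changes of CS1, CS2 and shFTO against their controls; genes that did not pass or went against the rest are named too. Gene positions are from GENCODE release 29, and promoter sequences from RefSeq.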

Additional observations from a re-analysis of the deposited data

How the results depend on the processing

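Across all alternatives and single libraries left out, from 49 to 53 of the 57 genes fell with CS2 and from 53 to 56 with shFTO. The shares of all tested entries that fell ranged from 17.6% to 37.9% with CS2 and from 16.2% to 30.8% with shFTO. With CS1 the number that fell was 52 under median scaling (35.1% of all tested entries), 48 under quantile normalization (28.5%) and 48 under trimmed-mean scaling (25.3%). It was 43 after removal of ribosomal RNA and mitochondrial-like entries (18.8%) and 42 with only the compared groups (15.8%). With 1 library left out it was between 26 and 40 (11.6% to 13.3%). The number that rose with CS1 was 0 under median scaling (21.4% of all tested entries), 1 under quantile normalization (24.9%) and 1 under trimmed-mean scaling (26.9%). It was 1 after removal of ribosomal RNA and mitochondrial-like entries (31.3%), and 1 to 2 with 1 library left out (32.3% to 38.8%). The number that rose with CS2 was 1 under median scaling (34.8%), 1 under quantile normalization (36.1%) and 2 under trimmed-mean scaling (37.8%). Genes higher with CS2 than with CS1 numbered 6 after removal of those entries (42.3% of all tested entries) and 5 with only the compared groups (39%). Lower responses to CS1 than to the hairpin numbered 5 under median scaling (27.2% of all tested entries) and 5 under quantile normalization (25%). With 1 library left out they numbered 1 to 4 (15.4% to 19.2%). Higher responses to CS1 numbered 35 under median scaling (25.1%), 37 under quantile normalization (26.3%) and 37 under trimmed-mean scaling (28%). With 1 library left out these numbered 40 to 48 (28.5% to 33%). Lower responses to CS2 than to the hairpin numbered 28 under quantile normalization (30.8%). Higher ones numbered 7 under median scaling (32.6%), 7 under quantile normalization (32.4%) and 7 under trimmed-mean scaling (33.6%). With 1 library left out the higher ones numbered 9 to 22 (37.7% to 40.9%). The cause was not tested beyond the scalings themselves.

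Signs turned for a few values near 0. UBTF was at -0.0102 with CS1 and -0.00827 with CS2 under median scaling, and at -0.0194 with CS2 under quantile normalization. For CS1, DDX52 was at -0.0649, -0.0414 and -0.000743 under median scaling, quantile normalization and trimmed-mean scaling. RRP12 was at -0.124, -0.0799, -0.0621 and -0.00213 under these scalings and the removal of entries, and between -0.00613 and 0.0848 with 1 library left out; NOC3L was between -0.0419 and 0.0147. With shFTO, DDX47 was at -0.0702 under median scaling, at -0.05 under trimmed-mean scaling, and between -0.0177 and 0.0708 with 1 library left out.

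Replicate numbers did not meet the bar for pairing, a correlation over 0.1 in every pair of libraries with the same number. These correlations lay between -0.00925 and 0.101 for CS1 and DMSO, 0.0244 and 0.0786 for CS2 and DMSO, and 0.00439 and 0.0764 for shFTO and shNS. For CS1 and CS2 they were higher, between 0.0853 and 0.219. With the number as a replicate block 37 genes fell and 2 rose with CS1 (13.9% and 36.2% of all tested entries). Under the same block 50 fell and 4 rose with CS2 (24.5% and 48.7%), and 56 fell with shFTO (24.5%). In CS2 against CS1, 45 genes were then lower and 4 higher (26.5% and 40.9%). The values are shares of a total, the depth is unknown and groups hold 3 or 4 libraries, so changes that are small beside the shift between scalings are uncertain.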
